A study of Mus musculus with 6 samples.

Results

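The Myc, Max and Mxd network was followed in the neocortex of Bcl11a mutant and control mouse embryos. The 10 genes examined were Myc, Mycn, Mycl, Max, Mxd1, Mxd3, Mxd4, Mxi1, Mnt and Mga, out of 19938 genes tested on the array. They were taken as the listed genes of this network that the array annotation names, each read from the probe set with a single gene symbol and the highest mean over the 6 arrays. All 10 were measured, each by 1 probe set, and all 10 had a mean above the median of the genes tested. The network was chosen by the log2 values of Myc in this same contrast, since Myc was already known to be lower in these mutants. The differences of its members between mutants and controls are therefore a description and not a test of the network.

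The samples were neocortex, the largest region of the cerebral cortex, dissected at embryonic day 14.5 from 3 mutant and 3 control embryos, with 1 array per embryo. Mutants were Bcl11aΔflox/Δflox, meaning that both copies of Bcl11a carried the deleted form of a floxed allele, and controls were Bcl11a+/+. No source used here names the Cre line, the cells in which it acted or the deleted exon, so the Bcl11a probes could not be placed against the deletion. Bcl11a, which encodes a zinc finger DNA-binding protein, read 11.41, 11.49 and 11.34 on the log2 scale in mutants, against 12.20, 12.30 and 12.26 in controls, and it fell by 0.84 ± 0.06 (SE, limma adjusted p = 0.00201), so each array matched its label. Of 11 genes that define the neocortex, 9 were measured, and their mean level was 11.55 to 11.64 in mutants and 11.54 to 11.62 in controls.

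Myc proteins are basic helix-loop-helix leucine zipper transcription factors that drive growth, ribosome building and division. They bind DNA as a pair with Max, mostly at a short sequence called the E-box. The Mxd proteins, Mnt and Mga also pair with Max and occupy the same sites, where Mxd proteins and Mnt bring in the Sin3 and histone deacetylase corepressor. In the developing mouse brain Mycn is the Myc gene best known for sustaining neural progenitors, while several Mxd genes are known to be used as cells leave the cycle and differentiate.

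Promoter sequences show how the network's own binding site occurs in its genes. The RefSeq promoter table of mouse build GRCm38.p6, which gives windows of 300 bases around gene starts, held 11 of them for 9 of the 10 members, all but Myc. The E-box CACGTG reads the same on both strands. It was found in 3 of the 11 windows, from Max, Mnt and Mxd4, and in 7.15% of all 32851 windows. It began 3 bases before the start of Max, 123 bases before that of Mnt and 219 bases before that of Mxd4. The stretches are printed 5′ to 3′ on the strand of the gene, with the E-box in capitals, for Max at chr12:76962246-76962275 (minus strand), Mnt at chr11:74830774-74830833 (plus strand) and Mxd4 at chr5:34187897-34187956 (minus strand).
Max: ctaccccggcgcggtgagcccggtCACGTG
Mnt: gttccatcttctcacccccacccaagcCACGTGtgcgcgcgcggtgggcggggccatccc
Mxd4: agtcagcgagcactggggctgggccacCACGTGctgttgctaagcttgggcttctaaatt
The related sequence CACGCG, searched on both strands, was found in 2 of the 11 windows, from Mga and Mycl, and in 9.27% of all windows.

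Mycn carried a different arrangement, a pair of sites of the form TTTGGCGC, a sequence bound by E2F cell cycle factors. They began 183 and 168 bases before its start and are shown in capitals, at chr12:12941970-12942046 (minus strand).
Mycn: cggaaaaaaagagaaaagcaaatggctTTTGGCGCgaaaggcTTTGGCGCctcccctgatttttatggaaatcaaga
This sequence, on either strand, was found in 1 of the 11 windows of the members and in 0.514% of all windows. TGACCA, the core motif of Bcl11a, was found on neither strand in the 11 windows of the 9 members. It was found on 1 strand or the other in 13.6% of all windows. These matches describe the letters of the windows and are not evidence of binding.

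Among the 3 Myc genes, Myc was the 1 member that passed the threshold. Myc, the general growth regulator of the family, read 9.17, 9.23 and 8.98 on the log2 scale in mutant replicates 1, 2 and 3, against 9.58, 9.73 and 9.63 in control replicates 1, 2 and 3. Every mutant lay below every control, and the lowest control stood above the highest mutant by more than the SD of either group. Myc averaged 9.13 ± 0.13 in mutants and 9.65 ± 0.08 in controls (SD, n = 3 arrays each), which is 1.43-fold lower. Its log2 difference was -0.52 ± 0.08 (SE, 95% interval -0.70 to -0.34) with a limma adjusted p of 0.048. This is the value that led to the choice of the network. Myc ranked 55 by p among the 57 genes that passed and 6 by size among the 8 that fell, and 0.602% of all genes had a larger difference in either direction. Leaving out any 1 of the 6 arrays ended the call (limma adjusted p = 0.0832 to 0.207), with differences between -0.57 and -0.45. In bulk tissue, fewer cells that carry Myc RNA and less Myc RNA per cell cannot be told apart.

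Mycn read 10.78, 10.78 and 10.76 in mutants, against 10.75, 10.69 and 10.78 in controls. The groups overlapped and lay within 0.1 of each other, with a difference of 0.03 ± 0.06 (SE, 95% interval -0.10 to 0.16). The interval of this Myc gene of neural progenitors did not reach that of Myc, by which the network was chosen. The difference between these genes was not tested. Mycl, the third Myc gene, read 9.58, 9.45 and 9.43 in mutants, against 9.39, 9.33 and 9.27 in controls. All 3 mutants lay above all 3 controls, by a narrow margin, and the difference was 0.15 ± 0.07 (SE, limma adjusted p = 0.824), so it did not pass over all genes.

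**Figure D1:**
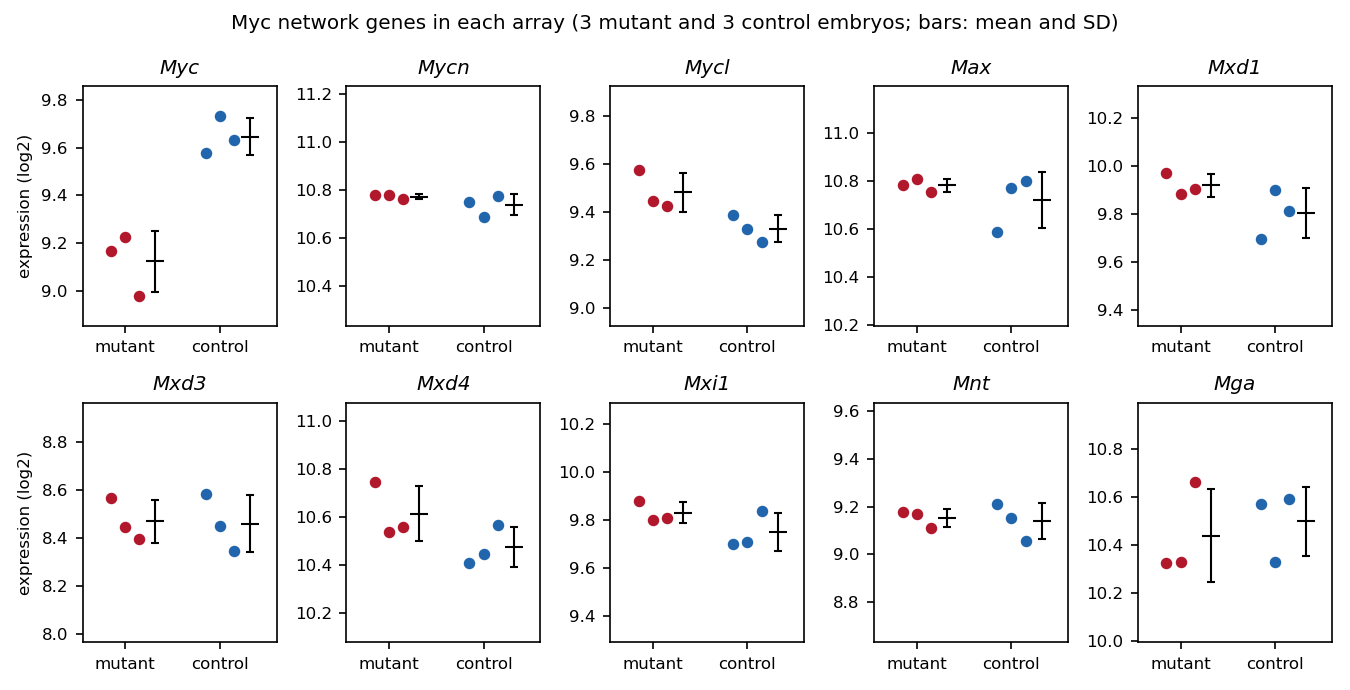
Expression of each network gene on the log2 scale in the 3 mutant (red, left) and 3 control (blue, right) embryos, with the group mean and SD as black bars; every panel spans 1 log2 unit. Myc is lower in all 3 mutants, Mycl is slightly higher in all 3, and the groups of the other 8 genes overlap.

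Of the 10 members, 1 passed and was lower in mutants and none was higher, where 0.286% of all genes tested passed, 0.0401% as lower and 0.246% as higher. The arrays of the groups did not overlap for 2 members, Myc (lower) and Mycl (higher), where 10.5% of all genes did not overlap, 2.85% as lower and 7.69% as higher. At an unadjusted p under 0.05 there were 2 of the 10 members, again Myc and Mycl, and 6.05% of all genes. Because the choice of the network used this contrast, nothing is read from these counts. The differences of the 9 members other than Myc lay between -0.06 and 0.15, their median was 0.06, and the median of all genes was 0.02. Taken over these 9, the 95% intervals ran from -0.31 to 0.32 at the widest. They did not hold the difference of Myc, -0.52, by which the network was chosen. Differences between genes were not tested, and nothing is read from this comparison. The limma adjusted p of these 9 was 0.824 or higher. The sign of the difference turned for Max, Mxd3, Mnt and Mga in 1 to 3 of the 10 alternatives that can move it.

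Max, the partner shared by the other members, read 10.78, 10.81 and 10.75 in mutants, against 10.59, 10.77 and 10.80 in controls. The groups overlapped, with control replicate 1 as the lowest array, and the difference was 0.06 ± 0.07 (SE, 95% interval -0.10 to 0.23).

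Among the antagonists, Mxd1 and Mxd4, known from differentiating cells, had the larger positive differences, and neither passed. Mxd4 read 10.75, 10.54 and 10.56 in mutants, against 10.41, 10.44 and 10.57 in controls. Only mutant replicate 1 lay above every control, and the difference was 0.14 ± 0.08 (SE, 95% interval -0.04 to 0.32, limma adjusted p = 0.983). Mxd1 read 9.97, 9.88 and 9.90 in mutants, against 9.70, 9.90 and 9.82 in controls. Control replicate 2 lay within the mutant range, and the difference was 0.12 ± 0.07 (SE, 95% interval -0.04 to 0.28).

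Mxi1, the Mxd gene also known as Mad2, read 9.88, 9.80 and 9.81 in mutants, against 9.70, 9.71 and 9.84 in controls. Its groups overlapped through control replicate 3, with a difference of 0.08 ± 0.06 (SE). Mxd3, an Mxd gene known from dividing cells, read 8.57, 8.45 and 8.39 in mutants, against 8.58, 8.45 and 8.35 in controls. The groups covered the same range, and the difference was 0.01 ± 0.08 (SE, 95% interval -0.17 to 0.19).

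Mnt and Mga are large Max partners found in many tissues. Mnt, which represses through Sin3, read 9.18, 9.17 and 9.11 in mutants, against 9.21, 9.15 and 9.06 in controls. The mutants lay inside the range of the controls, with a difference of 0.01 ± 0.06 (SE, 95% interval -0.13 to 0.16). Mnt lies on the same chromosome as Bcl11a, chromosome 11, with 581 tested genes between them. Mga, which joins a T-box domain to the helix-loop-helix domain and belongs to a Polycomb complex, read 10.32, 10.33 and 10.66 in mutants, against 10.57, 10.33 and 10.59 in controls. Its arrays split into 3 low and 3 high values across both groups, it had the largest SD of the members at 0.171 (pooled over groups), and its difference was -0.06 ± 0.11 (SE, 95% interval -0.31 to 0.19).

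**Figure D2:**
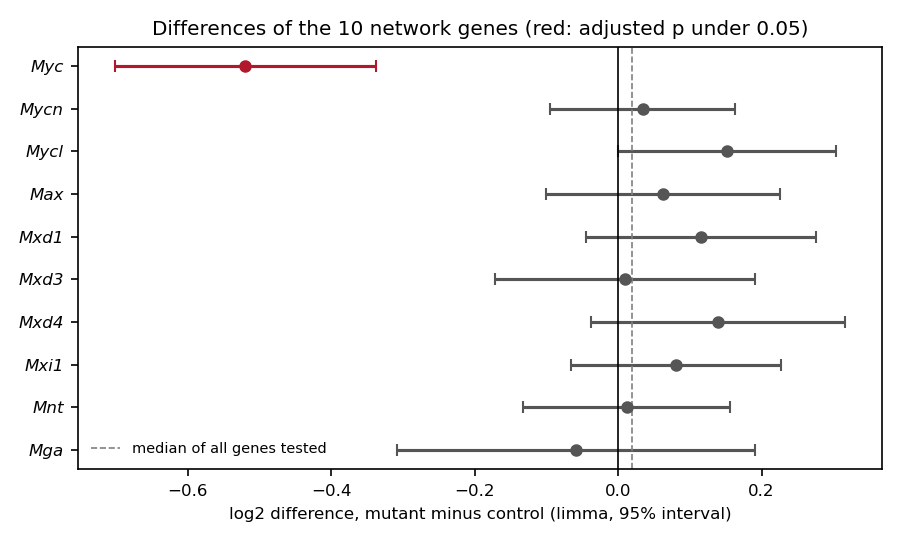
Log2 difference of mutant minus control for each of the 10 network genes, with limma's 95% interval; the dashed line marks the median of all genes tested, 0.02. The interval of Myc, by which the network was chosen, is -0.70 to -0.34, and those of the other 9 genes reach no lower than -0.31. Differences between genes were not tested.

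The embryos were of both sexes by their level of Xist, with 1 female and 2 male mutants against 2 female and 1 male controls. Each sex thus had an arm of 1 array and allows no test. Within females, Myc read 9.23 in the mutant and averaged 9.60 in the controls, and within males it averaged 9.08 in the mutants and read 9.73 in the control. The difference was -0.38 in females and -0.66 in males, and its sign was fixed by groups that do not overlap. With sex as a covariate the difference was -0.52 and did not pass (limma adjusted p = 0.179). Mycl differed by 0.11 in females and 0.17 in males, and Mga by -0.25 in females and 0.16 in males.

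The genes most like Myc over the 6 arrays were found by the root mean square distance between log2 values after each gene was centred on its own mean. The nearest of all other genes tested were Gipr (distance 0.0733), Nptx1 (0.0894), Car12 (0.0935), Shc3 (0.0971) and Rasgrf1 (0.102). Gipr, the receptor of an incretin hormone, read 7.83, 7.85 and 7.79 in mutants, against 8.29, 8.40 and 8.44 in controls. Nptx1, a secreted pentraxin of synapses, read 8.85, 8.77 and 8.67 in mutants, against 9.14, 9.16 and 9.19 in controls. In all 5 of these genes every mutant lay below every control, which follows from their choice for likeness to Myc and supports nothing further. Of the other 9 network members the closest to Myc was Mnt, at rank 6285.

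Around the 10 members, 187 further genes were listed in 13 groups of partners, regulators and targets, and 175 of them were measured. Of these, 1 rose, Gadd45a, where 0.246% of all genes tested rose, and none fell by limma's adjusted p. At an unadjusted p under 0.05 there were 9 of the 175, or 5.14%, against 6.05% of all genes. Their median difference was 0.00. The groups were written with earlier results of these data known, so these counts are a description and not a test.

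Gadd45a, a growth arrest and DNA damage gene known to be repressed by Myc, read 7.81, 7.73 and 7.82 in mutants, against 7.29, 7.26 and 7.35 in controls. The groups did not overlap and were tight, with a rise of 0.48 ± 0.06 (SE, limma adjusted p = 0.0152), or 1.40-fold. It passed in 1 of the 6 fits that left out 1 array, the one without control replicate 3, with differences of 0.46 to 0.51 (adjusted p = 0.0289 to 0.101), and its adjusted p was 0.0898 with sex as a covariate and 0.0618 with a replicate block. Of 8 measured genes that Myc is known to repress, the other 7 did not pass, the median was 0.01, and the lowest was Gadd45b, a relative of Gadd45a, at -0.11.

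Genes that Myc is known to activate did not pass in any of their 4 groups. Of 80 measured targets, 26 had a positive difference, or 32.5%, against 60.3% of all genes, and their median was -0.02, against 0.02 for all genes. At an unadjusted p under 0.05 there were 3 of these 80, or 3.75%, against 6.05% of all genes. The share with a positive difference was 35.0% after a further quantile normalization, against 60.8% of all genes. After median centring it was 38.75%, against 64.8% of all genes. It was 51.2% without control replicate 3, against 55.2% of all genes, and lower in the 5 fits that left out another array. Genes of 1 group are not independent of each other.

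The 33 targets that build ribosomes in the nucleolus ran from -0.14 for Npm1, the nucleophosmin gene, to 0.14 for Rrp9, a factor of ribosomal RNA processing, with a median of 0.00. The 12 targets in translation and protein folding ran from -0.09 for Eef1e1 to 0.07 for Farsa, a subunit of an aminoacyl-tRNA synthetase, with a median of -0.03. In metabolism and mitochondria, 17 of 21 targets had negative differences, where 60.3% of all genes had positive ones. The 21 ran from -0.18 for Shmt1, an enzyme of one-carbon metabolism, to 0.12 for the glucose transporter gene Slc2a1, with a median of -0.03. Shmt1 read 8.59, 8.71 and 8.64 in mutants, against 8.77, 8.80 and 8.90 in controls, without overlap (limma adjusted p = 0.626).

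Among 14 cell cycle targets the lowest was Ccnd1, the cyclin D1 gene, and the highest was Tert, the telomerase gene, at 0.10. Ccnd1 read 10.32, 10.38 and 10.44 in mutants, against 10.95, 10.76 and 10.66 in controls. The groups did not overlap, and the difference of -0.41 ± 0.08 (SE) did not pass over all genes (limma adjusted p = 0.139). The median of the 14 was -0.02, and it lay between -0.08 (without mutant replicate 1) and 0.01 (without control replicate 1) when 1 array was left out.

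**Figure D3:**
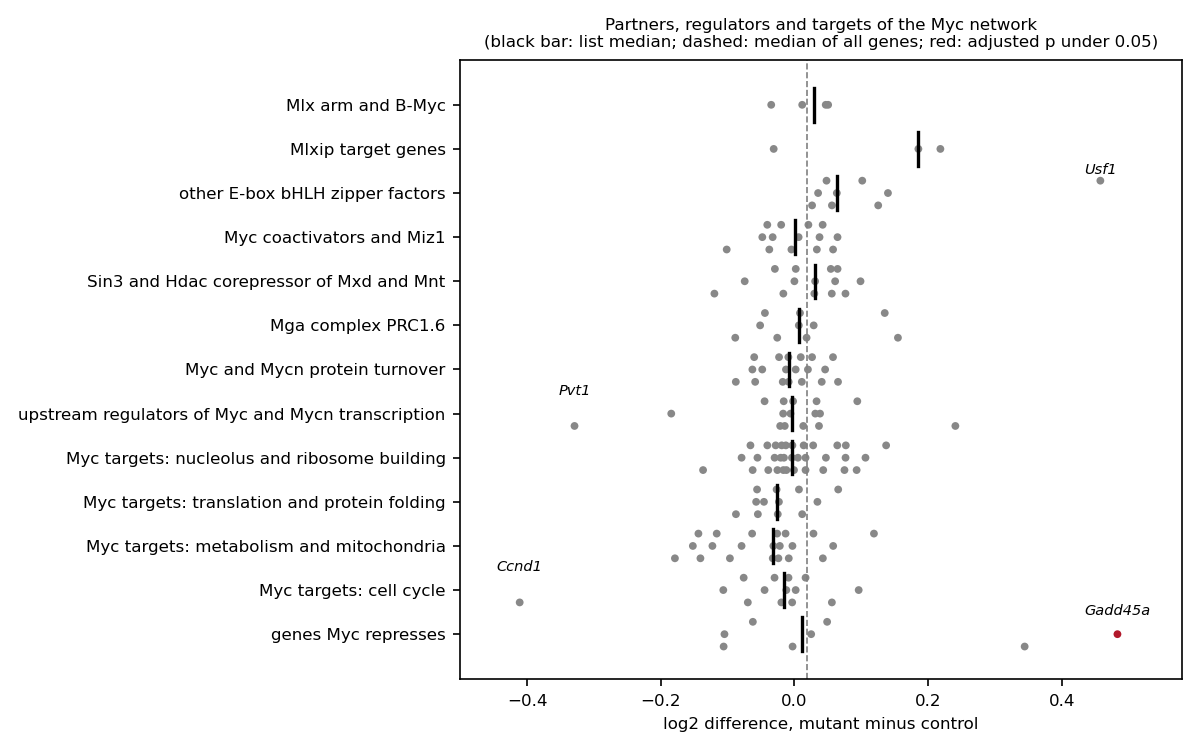
Log2 difference of mutant minus control for each measured gene of the 13 groups of partners, regulators and targets (points), with the median of each group (black bar) and of all genes tested (dashed line). Gadd45a, in red, is the 1 gene that passed; Ccnd1 and Pvt1 are the lowest points and Usf1 the highest of the genes that did not pass.

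Of 16 measured upstream regulators of Myc and Mycn, none passed, and their median was 0.00. Pvt1, a noncoding RNA gene next to Myc in the order of tested genes on chromosome 15, was the lowest. Its brighter probe set read 6.50, 6.62 and 6.64 in mutants, against 6.80, 6.93 and 7.02 in controls. These groups did not overlap, and the difference was -0.33 ± 0.07 (SE, limma adjusted p = 0.186). The dimmer probe set of Pvt1 averaged 4.04 over the 6 arrays, near the floor, where a difference could hardly show, and it differed by 0.02. Lef1, a transcription factor of Wnt signalling, was the highest regulator and read 9.27, 9.08 and 9.04 in mutants, against 8.75, 8.94 and 8.98 in controls (limma adjusted p = 0.626).

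Partners and turnover genes lay close to 0. The 14 measured Myc coactivators and Miz1 ran from -0.10 for Actl6a, an actin-like chromatin protein, to 0.06 for the helicase gene Ruvbl1. The 14 measured subunits of the Sin3 and histone deacetylase corepressor ran from -0.12 for Sap30 to 0.10 for Rbbp4. The 10 partners of Mga in its Polycomb complex ran from -0.09 for Rybp to 0.15 for Yaf2. The 19 measured genes of Myc and Mycn protein turnover ran from -0.09 for Skp2, an F-box protein, to 0.07 for Ppp2r5a, a phosphatase subunit. Each of these 4 groups had a median between -0.01 and 0.03, and no gene in them passed.

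The parallel arm is built on Mlx, a relative of Max that Mnt and some Mxd proteins can also pair with. With B-Myc its 4 genes ran from -0.03 for Mlx to 0.05 for Bmyc, and none passed. Its sugar-responsive target genes ran from -0.03 for Pklr to 0.22 for Arrdc4, an arrestin family gene, and none of the 3 passed. Other factors that bind E-boxes were all positive, 9 of 9, where 60.3% of all genes were, and none passed. They ran from 0.03 for Tfap4 to 0.46 for Usf1, with a median of 0.06, and 0.03 without mutant replicate 1. Usf1, an upstream stimulatory factor, read 9.86, 9.32 and 9.61 in mutants, against 9.11, 9.04 and 9.27 in controls, with a wider spread in mutants (limma adjusted p = 0.358).

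**Figure D4:**
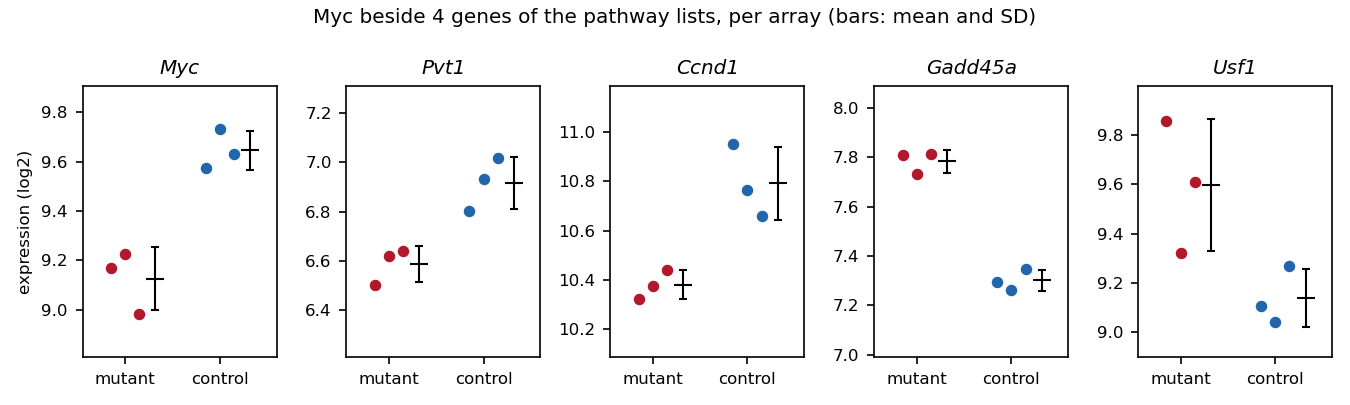
Expression on the log2 scale of Myc, Pvt1, Ccnd1, Gadd45a and Usf1 in the 3 mutant (red, left) and 3 control (blue, right) embryos, with the group mean and SD as black bars; every panel spans 1.1 log2 units. Myc, Pvt1 and Ccnd1 are lower and Gadd45a and Usf1 higher in every mutant, and of these Myc and Gadd45a passed over all genes.

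Among markers of other cells, erythroid genes rose beside these values. Of 10 measured erythroid genes, 6 passed as higher, where 0.246% of all genes tested did, and all 10 had positive differences. Their mean level was 8.45 to 8.56 in mutants and 7.33 to 7.45 in controls, and their median difference was 0.64. The differences ran from Gata1 at 0.01 to Hbb-bh1, an embryonic globin, at 5.02. None of the 10 pericyte and meninges genes, 10 endothelial genes or 12 microglia and macrophage genes passed. All 32 had positive differences, where 60.3% of all genes did. Mean levels of pericyte and meninges genes were 7.17 to 8.01 in mutants and 6.91 to 7.04 in controls, from Rgs5 at 0.05 to Dcn at 2.09, and their median difference was 0.13 without mutant replicate 1 and 0.27 with it. Endothelial genes were at 8.46 to 8.85 in mutants and 8.37 to 8.61 in controls, from Pecam1 at 0.04 to Tek at 0.32, and their median difference was 0.02 without mutant replicate 1 and 0.11 with it. Microglia and macrophage genes were at 7.14 to 7.36 in mutants and 6.92 to 7.06 in controls, from Aif1 at 0.05 to Fcrls at 0.45.

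No marker passed in the lists of neural cells, of the choroid plexus or of the neocortex as a whole. Of 10 measured genes of dividing cells, 9 had negative differences, where 60.3% of all genes had positive ones. The 10 ran from Mcm3 at -0.22 to Mcm2 at 0.01, with mean levels of 11.16 to 11.21 in mutants and 11.18 to 11.33 in controls. Radial glia genes were at 10.80 to 10.86 in mutants and 10.88 to 10.90 in controls, from Hopx at -0.43 to Slc1a3 at 0.04. Genes of intermediate progenitors ran from Gadd45g at -0.19 to Mfap4 at 0.22, genes of neurons from Snap25 at -0.20 to Tubb3 at 0.14, genes of the ganglionic eminence from Nkx2-1 at -0.05 to Lhx6 at 0.28, genes of the choroid plexus from Ttr at -0.06 to Folr1 at 0.10, and genes that define the neocortex from Emx2 at -0.15 to Eomes at 0.21. The part of any of these cell types in the values of Myc and Gadd45a was not tested.

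**Figure D5:**
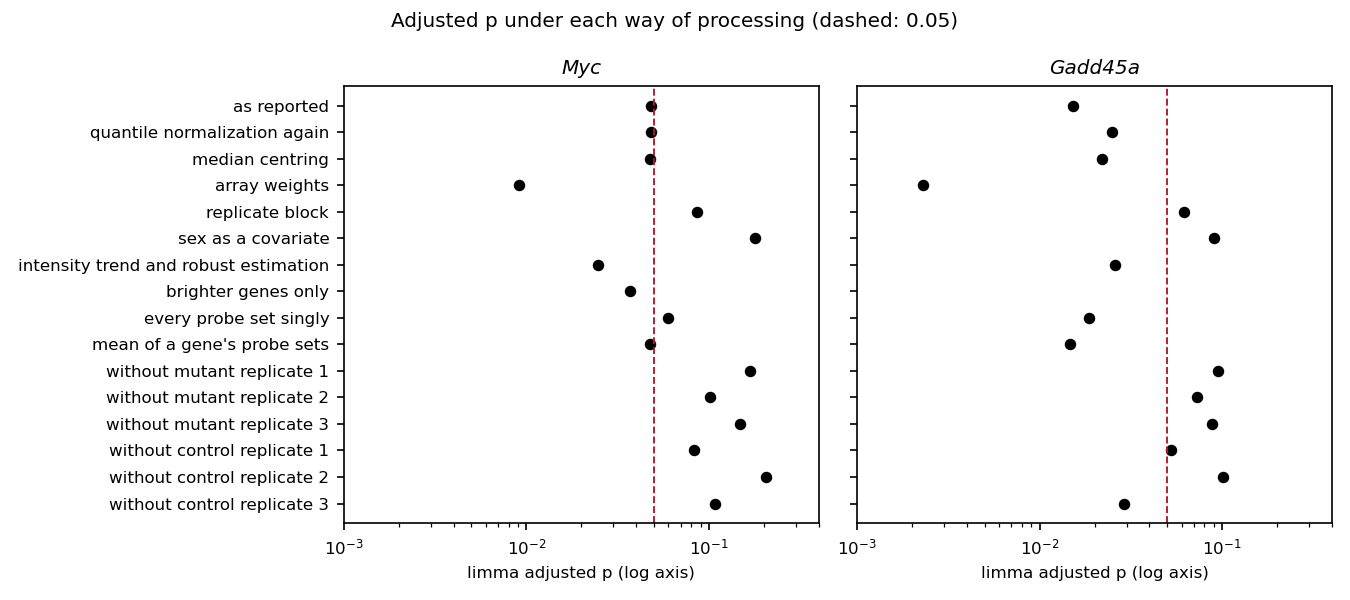
Limma adjusted p of Myc (left) and Gadd45a (right) on a log axis under each way of processing the same arrays, with the threshold of 0.05 as a dashed line. Myc lies at 0.048 as reported and above the threshold in all 6 fits that leave out an array. Gadd45a lies at 0.0152 as reported and is under the threshold in 1 of those 6 fits, the one without control replicate 3; it has no point for the brighter genes, where it was not tested.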

How the data were processed

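Per the submitters' processing notes, the deposited log2 values came from RMA in Affymetrix Expression Console. RMA corrects background, equalises the arrays' distributions and summarises the probes of each probe set. Values lay between 3.41 and 13.75. RMA compresses differences near the floor, and no read depth exists, so the number of arrays limits the precision. Of 35556 probe sets, 21789 had 1 gene symbol in GEO's platform annotation and were used, and 21698 of these matched RefSeq by Entrez number. The brightest probe set of each gene was kept, which left 19938 genes. Levels of different genes were not compared.

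The contrast of mutants and controls was fitted with limma 3.58.1 and R 4.3.3 (lmFit, eBayes, no covariate). P-values are two-sided and adjusted by the Benjamini-Hochberg method over all genes, with a threshold of 0.05. The fit was tested on simulated data. The members and lists were chosen with earlier results of these data known. All members, Bcl11a, genes of the network's lists that passed, the highest and lowest gene of each list and the 5 genes nearest to Myc were named, and of the marker lists the highest and lowest gene only. Alternatives covered normalization, array weights, covariates, filters, probe sets and left-out arrays.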

Additional observations from a re-analysis of the deposited data

How the results depend on the processing

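With 3 arrays a group, the calls of Myc and Gadd45a depended on the processing. Their direction could not turn when 1 array was left out, since their groups do not overlap, or where only the test changed. That it stayed the same there supports nothing further. Myc passed in 6 of 15 alternatives judged at the same threshold, with adjusted p from 0.00914 to 0.207 over all of them. Its log2 difference was -0.52 with a replicate block (limma adjusted p = 0.0859), -0.52 with sex as a covariate (0.179), -0.52 with every probe set tested singly (0.0594), and -0.57 to -0.45 when 1 array was left out. Gadd45a passed in 7 of 14 such alternatives, not with a replicate block (limma adjusted p = 0.0618) or sex as a covariate (0.0898), and it was not tested among the brighter genes. The number of genes that passed was 57, and it was 217 with array weights, 34 with the replicate block, 24 with sex as a covariate, 87 with an intensity trend and robust estimation, 107 at an adjusted p under 0.1, and 20 to 50 when 1 array was left out. The 107 came from the same fit read at a looser threshold, and fewer arrays were fitted when 1 was left out. For the other counts the cause was not tested. The number among the further lists was 0 to 1 when 1 array was left out. Settings that change only the test or the genes tested leave a member's difference as it is. Under the 10 alternatives that can move it, 89 of 90 values of the other 9 members moved by less than 1 SD, and none of these 9 members passed in any setting. The sign turned in at least 1 alternative for 4 of them, Max, Mxd3, Mnt and Mga. Of 91 alternative list medians, 4 moved by 1 SD or more. Deviations of same-numbered arrays from their group means correlated at 0.03, -0.14 and 0.08, so the numbers gave no sign of pairing the embryos.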
